A study of Mus musculus with 12 samples.

Results

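The mitosis and spindle genes are a set of genes needed for a cell to enter, pass through and leave division, followed here in mouse pre-osteoblasts treated with BMP2, RSPO2 or both. The set was defined by gene name: 40 genes were listed, and 39 of them were found among the 39032 genes of the expression table. The remaining gene, Kif4, was not analysed here. All 39 reached at least 1 FPKM (fragments per kilobase of transcript, scaled to the mapped fragments of the library, so a level corrected for transcript length and library size) in at least 3 libraries, and so all 39 were among the 11548 genes tested.

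The cells were MC3T3-E1 subclone 14, a wild-type pre-osteoblast line of mouse skull origin that is a single clone, so every library shares its genetic background. All arms were kept for 5 days in osteogenic medium, which contained ascorbic acid phosphate and beta-glycerophosphate. The arms were BMP2+RSPO2, BMP2 alone (recombinant, 100 ng/ml), RSPO2 alone (recombinant mouse protein, 200 ng/ml) and Control, which received vehicle; the combined arm received the pair of proteins. Each of the 4 arms had 3 libraries, described by the submitters as independent biological replicates and numbered 1, 2 and 3. BMP2 is a bone morphogenetic protein that drives osteoblast differentiation, and RSPO2 (R-spondin 2) is a secreted protein that strengthens Wnt signalling by protecting Frizzled and LRP receptors from removal.

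Transcripts of mitosis genes accumulate late in the cell cycle: they are repressed in resting and early-cycle cells by the DREAM complex and switched on in G2 and M phase by complexes of MuvB proteins with B-MYB and FOXM1. Because dividing cells carry most of these transcripts, their summed level in a culture is widely read as a measure of proliferation, and osteoblast precursors generally divide less as they mature. In bulk RNA, fewer dividing cells and less mitotic RNA per dividing cell cannot be told apart.

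Promoters of such genes typically carry CCAAT boxes, bound by the factor NF-Y, and a cell cycle homology region with the letters TTTGAA, contacted by MuvB complexes. Both motifs were searched on both strands in RefSeq promoter windows (GRCm38.p6) as a description of what the members share that their definition did not use. Windows were held for 32 of the members, 34 windows in all, since Ect2 and Prc1 have 2 each. In the 250 bases upstream of the start, CCAAT was found in 26 of 34 member windows (76.5%), against 33.8% of all 32851 windows of that length, and TTTGAA in 12 (35.3%), against 16% of all. At least 2 CCAAT matches were found in 18 member windows (52.9%), against 10.1% of all, and 11 windows (32.4%) held both motifs, against 5.55% of all. With the 50 bases after the start added, TTTGAA was found in 26 member windows (76.5%), against 17.9% of all. Kif20a, Tpx2, Spc24, Ccna2, Aurkb, Incenp and Foxm1 had no window in the table used here. The 4 members with the most upstream matches of both motifs are printed to show how the motifs cluster; each sequence is the 250 bases before the start, read 5′ to 3′ on the gene's own strand, with motif matches in capitals (ATTGG and TTCAAA are the same motifs on the opposite strand). Top2a lies at chr11:99024190-99024439 on the minus strand, Ube2c at chr2:164769679-164769928 on the plus strand, Cdk1 at chr10:69352913-69353162 on the minus strand and Mki67 at chr7:135716380-135716629 on the minus strand. In Ube2c, 2 CCAAT matches on opposite strands overlap in the run CCAATTGG. A match of letters is no evidence of binding.
Top2a: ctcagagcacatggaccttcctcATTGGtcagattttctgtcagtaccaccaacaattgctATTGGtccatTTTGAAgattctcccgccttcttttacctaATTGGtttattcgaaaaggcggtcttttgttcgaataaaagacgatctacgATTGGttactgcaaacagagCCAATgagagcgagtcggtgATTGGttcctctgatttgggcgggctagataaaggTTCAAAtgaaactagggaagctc
Ube2c: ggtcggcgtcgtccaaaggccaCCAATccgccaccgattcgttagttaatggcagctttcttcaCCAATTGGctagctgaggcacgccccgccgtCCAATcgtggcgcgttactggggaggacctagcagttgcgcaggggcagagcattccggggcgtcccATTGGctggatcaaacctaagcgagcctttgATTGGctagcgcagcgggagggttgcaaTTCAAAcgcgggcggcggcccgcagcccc
Cdk1: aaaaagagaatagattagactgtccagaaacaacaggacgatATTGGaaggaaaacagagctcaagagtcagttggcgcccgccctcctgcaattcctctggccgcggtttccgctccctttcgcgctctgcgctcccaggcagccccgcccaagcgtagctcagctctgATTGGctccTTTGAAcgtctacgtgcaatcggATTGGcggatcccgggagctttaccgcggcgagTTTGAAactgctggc
Mki67: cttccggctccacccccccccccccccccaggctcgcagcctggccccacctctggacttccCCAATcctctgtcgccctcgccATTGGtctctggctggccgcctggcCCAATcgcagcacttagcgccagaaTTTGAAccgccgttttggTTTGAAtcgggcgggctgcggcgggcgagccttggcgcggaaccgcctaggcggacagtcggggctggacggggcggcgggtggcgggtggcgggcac

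Library depth was unknown, since the table holds FPKM values in which whole-read steps were not found. One library stood apart: in BMP2+RSPO2 replicate 1 the FPKM values summed to 635139, against 322074 to 380507 in the other 11, its 10 highest genes took 57.8% of that sum, against 11.4 to 19.8%, and short RNAs made by RNA polymerase III took 19.1%, against 0.179 to 2.3%. Its values for the members are therefore given with and without scaling. The median-of-ratios factors, which centre each library on the typical gene, ran from 0.835 in that library to 1.13. Osteoblast markers, fixed as Runx2, Sp7, Alpl, Col1a1, Col1a2, Ibsp, Bglap2 and Spp1, summed to between 6720 and 30500 FPKM in every library, and adipocyte and skeletal muscle markers to at most 0.05 FPKM. The 4 blood cell markers were listed at 0 in all libraries, and endothelial markers summed to between 0 and 5.35 FPKM, highest in BMP2+RSPO2 replicate 1; their part in the results was not tested.

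The dominant difference among the 12 libraries was not an arm but a replicate number. Replicate 1 of each arm was the highest of its arm in every arm for 37 of the 39 members, against 14.8% of all genes tested. This was known from earlier results of these data and is given as a description. On the log2(FPKM + 1) scale, replicate 1 exceeded the mean of replicates 2 and 3 by a median over the members of 1.48 in BMP2+RSPO2, 1.07 in BMP2, 2.25 in RSPO2 and 1.91 in Control cells, against -0.13, 0.107, 0.0491 and 0.0881 for all genes tested. The median excess was thus smallest in the BMP2 arm. Pttg1 was lower in replicate 1 in 3 arms and only slightly higher in BMP2 cells, with differences of -0.236 in BMP2+RSPO2, 0.252 in BMP2, -0.0515 in RSPO2 and -0.353 in Control. Foxm1 had no higher replicate 1 in BMP2 cells (-0.061), although in the other arms its difference was 2.03 in BMP2+RSPO2, 2.58 in RSPO2 and 1.47 in Control. Mki67 showed the largest excess of the 39 in BMP2+RSPO2 cells, 2.49. Arms were therefore compared within replicate numbers, as well as across all libraries.

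**Figure D1:**
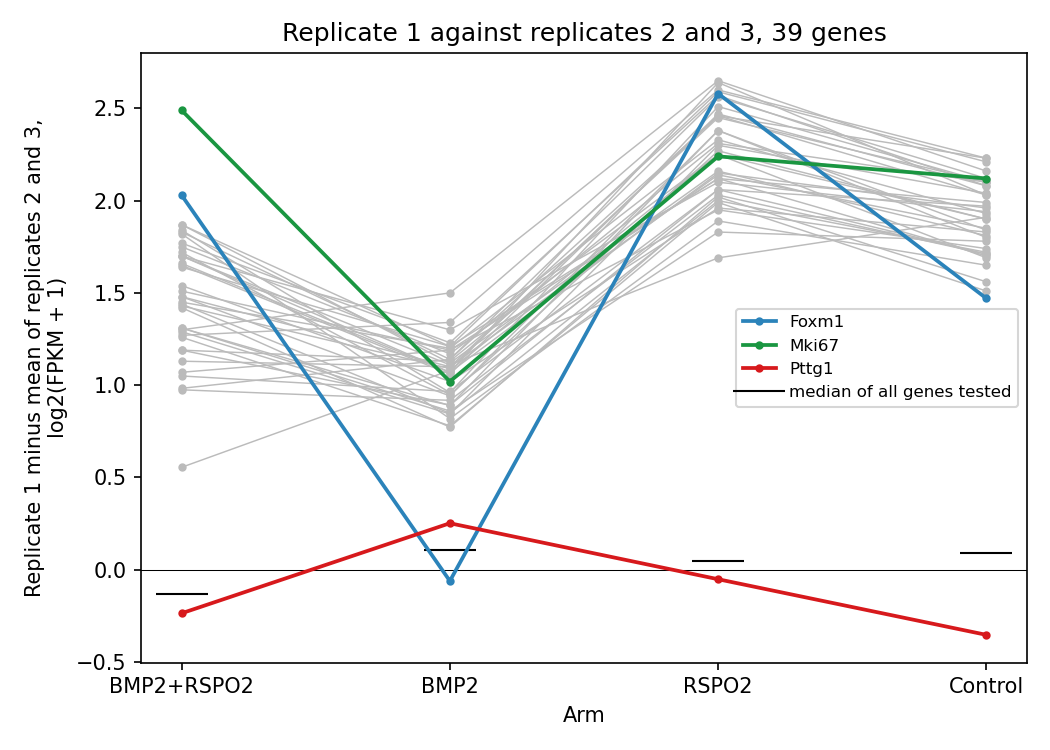
Difference between replicate 1 and the mean of replicates 2 and 3 on the log2(FPKM + 1) scale (y axis) in each arm (x axis), 1 line per gene, with Mki67, Foxm1 and Pttg1 coloured and short black bars at the median of all genes tested. Lines of 37 genes stay above 0 in every arm; the median of the 39 is lowest in the BMP2 arm (1.07), although Birc5, Ccnb1, Cenpa, Ndc80 and Spc24 are lower in the BMP2+RSPO2 arm, and Pttg1 stays near 0.

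Summed over the 39 members, the level was 738.4, 228 and 228.8 FPKM in BMP2+RSPO2 replicates 1, 2 and 3, against 1192, 546.1 and 561.8 in BMP2, 1420, 268.8 and 263.8 in RSPO2 and 1418, 325.2 and 369.3 in Control cells. In replicate numbers 2 and 3 BMP2 cells had the highest sum and BMP2+RSPO2 cells the lowest. In number 1 the order differed: RSPO2 and Control cells were nearly level at the top, BMP2 cells below them and BMP2+RSPO2 cells lowest. After division by the median-of-ratios factors, the sums were 884.5, 254 and 255.8 in BMP2+RSPO2, 1110, 557.4 and 566.2 in BMP2, 1264, 250.5 and 254.8 in RSPO2 and 1256, 312.5 and 358.5 in Control cells. On that scale BMP2+RSPO2 and RSPO2 cells were about level in numbers 2 and 3. Gene by gene, BMP2 > Control > RSPO2 > BMP2+RSPO2 was the order of the deposited values for 29 members in number 2 and for 30 in number 3. In number 1, 17 members had the order Control > RSPO2 > BMP2 > BMP2+RSPO2, and 16 had it with RSPO2 and Control exchanged.

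**Figure D2:**
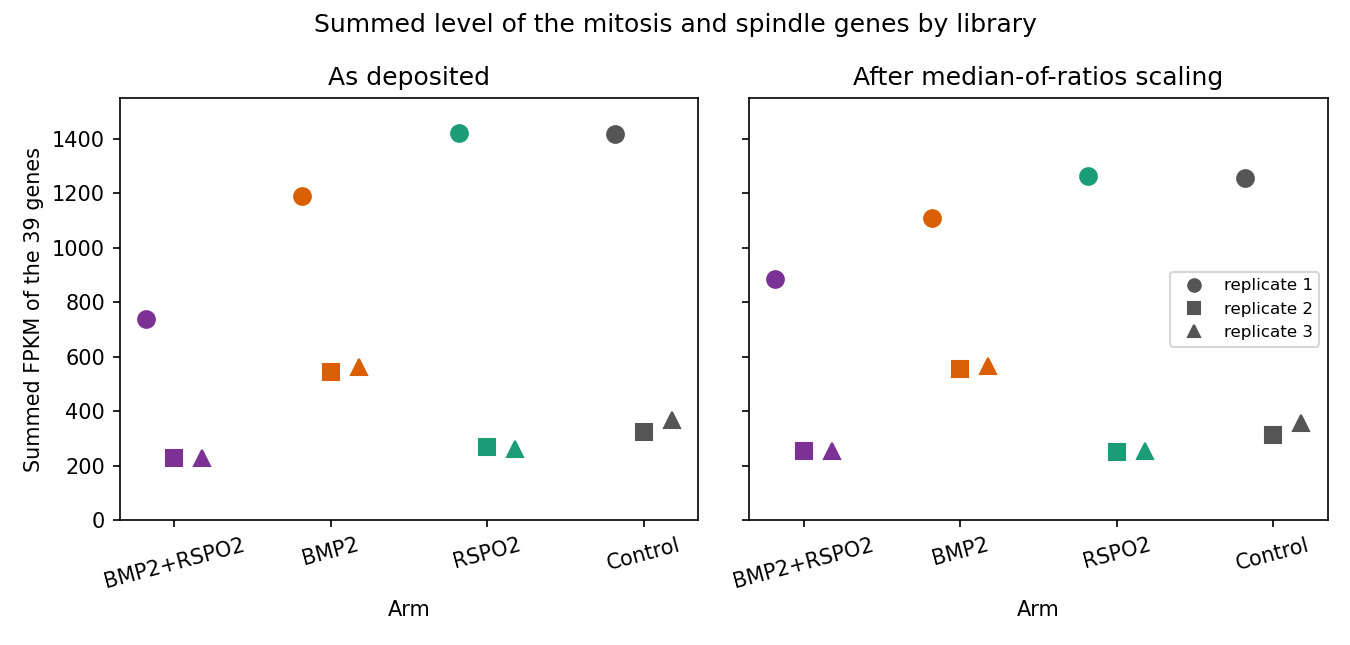
Summed FPKM of the 39 genes (y axis) by arm (x axis), as deposited on the left and after median-of-ratios scaling on the right; symbols mark the replicate number. Replicate 1 is highest in every arm, and replicates 2 and 3 of BMP2 cells (546.1 and 561.8 as deposited) lie above those of the other 3 arms.

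In the values that follow, replicates 1, 2 and 3 of an arm are always given in that order. The engine of mitotic entry came first. Cdk1, the kinase that triggers mitosis, had 31.1, 10.7 and 10.8 FPKM in BMP2+RSPO2, against 74.8, 31.4 and 32.5 in BMP2, 79.4, 16.9 and 13.2 in RSPO2 and 83.3, 19.5 and 22.7 in Control cells. Cdk1 was the most abundant member on average over all 12 libraries (35.5 FPKM), although not in the BMP2+RSPO2 arm, where Mki67 averaged 26.2 FPKM. By arm, Cdk1 averaged 17.5 ± 11.7 FPKM in BMP2+RSPO2, 46.2 ± 24.7 in BMP2, 36.5 ± 37.2 in RSPO2 and 41.8 ± 35.9 in Control cells (mean ± SD, n = 3 each). The SDs show how far replicate 1 dominated each mean. As deposited, all 3 BMP2+RSPO2 libraries lay below all 3 BMP2 libraries for Cdk1, although the highest of the one (31.1) nearly met the lowest of the other (31.4). After median-of-ratios scaling these arms overlapped. Ccnb1, the cyclin B1 partner of Cdk1 at mitotic entry, had 10.1, 3.64 and 3.57 FPKM in BMP2+RSPO2, against 22.9, 8.12 and 8.78 in BMP2, 28.6, 3.71 and 4.09 in RSPO2 and 29.6, 5.7 and 5.34 in Control cells. Ccnb2, cyclin B2, had 30.5, 7.58 and 9.01 FPKM in BMP2+RSPO2, against 57.5, 24.4 and 23.4 in BMP2, 62.1, 10.6 and 8.73 in RSPO2 and 65.3, 14.2 and 15.2 in Control cells. Within every number, BMP2+RSPO2 cells were below BMP2 cells for these B cyclins, whereas across numbers the arms overlapped. Ccna2, cyclin A2 of S phase and G2, had 33.6, 10.8 and 9.45 FPKM in BMP2+RSPO2, against 59.97, 25.4 and 25.3 in BMP2, 70.6, 10.99 and 10.8 in RSPO2 and 69.8, 13.2 and 15.4 in Control cells. Foxm1, the transcription factor that activates many G2 and M phase genes, had 17.9, 6.06 and 2.01 FPKM in BMP2+RSPO2, against 11, 12.6 and 10.5 in BMP2, 27.6, 5.52 and 2.5 in RSPO2 and 19.9, 6.52 and 6.62 in Control cells. Foxm1 was uneven: in number 1 BMP2+RSPO2 cells were above BMP2 cells, in numbers 2 and 3 below them, and replicates 2 and 3 of BMP2+RSPO2 cells, 6.06 and 2.01, were far apart.

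Mki67, which encodes the Ki-67 proliferation antigen that coats mitotic chromosomes, had 59.2, 10.1 and 9.34 FPKM in BMP2+RSPO2, against 52.5, 23.9 and 26.9 in BMP2, 60.3, 10.8 and 13.2 in RSPO2 and 62.4, 12.7 and 14.7 in Control cells. Top2a, topoisomerase II alpha, which disentangles sister chromatids, had 37.8, 9.2 and 10.5 FPKM in BMP2+RSPO2, against 51.01, 24.7 and 26.8 in BMP2, 71.6, 10.98 and 12.6 in RSPO2 and 65.8, 13.6 and 15.7 in Control cells. In number 1, Mki67 of BMP2+RSPO2 cells reached the level of the other arms, although Top2a did not. In numbers 2 and 3, BMP2 cells were the highest for both genes.

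Among the mitotic kinases, Aurka, the centrosomal Aurora kinase, had 19.2, 5.82 and 4.69 FPKM in BMP2+RSPO2, against 30.3, 11.4 and 12.01 in BMP2, 34.5, 7.23 and 7.29 in RSPO2 and 33.3, 7.52 and 8.39 in Control cells. Aurkb, the Aurora kinase of the chromosomal passenger complex, had 9.31, 3.86 and 4.09 FPKM in BMP2+RSPO2, against 19.3, 9.8 and 8.98 in BMP2, 22.7, 4.71 and 4.68 in RSPO2 and 25.1, 5.41 and 5.96 in Control cells. Plk1, a kinase that drives centrosome maturation and mitotic progression, had 26.8, 7.79 and 7.38 FPKM in BMP2+RSPO2, against 41.2, 18.99 and 19.3 in BMP2, 50.3, 10.1 and 11.03 in RSPO2 and 51.5, 11.2 and 14.1 in Control cells. As deposited, all 3 kinases were lowest in BMP2+RSPO2 cells within each number. After median-of-ratios scaling, Aurkb of BMP2+RSPO2 and RSPO2 cells was about level in numbers 2 and 3 (log2 differences of -0.024 and 0.0136). Birc5, survivin, which brings the passenger complex to centromeres, had 18.5, 6.65 and 7.2 FPKM in BMP2+RSPO2, against 46.6, 16.4 and 15.3 in BMP2, 47.1, 7.19 and 6.19 in RSPO2 and 48.3, 9.58 and 10.6 in Control cells. In number 3, Birc5 was slightly higher in BMP2+RSPO2 than in RSPO2 cells. The remaining passenger subunits, Incenp and Cdca8, averaged 20.2 and 4.66 FPKM in BMP2+RSPO2, 31.2 and 7.82 in BMP2, 25.2 and 6.7 in RSPO2 and 26 and 6.79 in Control cells.

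Of the spindle checkpoint, which holds anaphase until all chromosomes are attached, Bub1 had 10.2, 2.9 and 3.41 FPKM in BMP2+RSPO2, against 18.4, 7.44 and 8.91 in BMP2, 25.98, 3.42 and 4.46 in RSPO2 and 24.6, 4.42 and 4.49 in Control cells. The other checkpoint members, Bub1b, Mad2l1 and the kinase Ttk, had the same order of arms in number 2, with BMP2 highest and BMP2+RSPO2 lowest. Ttk was the least abundant of the 39 on average, from 0.99 to 8.73 FPKM. At the centromere, Cenpa, the histone H3 variant that marks it, had 7.93, 3.03 and 3.51 FPKM in BMP2+RSPO2, against 19.1, 7.48 and 8.15 in BMP2, 19.5, 3.56 and 3.87 in RSPO2 and 19.3, 5.11 and 5.37 in Control cells. Cenpf, a large kinetochore protein, had 10.2, 2.34 and 1.98 FPKM in BMP2+RSPO2, against 9.67, 4.93 and 5.17 in BMP2, 12.1, 2.19 and 2.89 in RSPO2 and 11.9, 2.92 and 3.26 in Control cells. Ndc80, the microtubule-binding subunit of the kinetochore, had 12.96, 5.94 and 6.19 FPKM in BMP2+RSPO2, against 34.8, 15.3 and 15.2 in BMP2, 40.1, 7.48 and 5.53 in RSPO2 and 40.4, 8.86 and 9.39 in Control cells. As deposited, Ndc80 separated BMP2+RSPO2 from BMP2 cells fully, and Cenpf did not: in number 1 its value was higher in BMP2+RSPO2 cells. After median-of-ratios scaling, Ndc80 overlapped between these arms too. Spc24, Spc25 and Nuf2, which form the NDC80 complex with Ndc80, and the motor Cenpe averaged between 4.31 and 5.72 FPKM in BMP2+RSPO2 cells. Their averages were 7.15 to 12.3 in BMP2, 6.92 to 12.02 in RSPO2 and 6.97 to 13.4 in Control cells.

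Among the kinesins, Kif11, the motor that pushes spindle poles apart, had 26.5, 8.04 and 7.55 FPKM in BMP2+RSPO2, against 41.4, 18.9 and 19.7 in BMP2, 50.5, 7.93 and 8.72 in RSPO2 and 50.4, 10.5 and 11.8 in Control cells. Kif20a, a motor of the central spindle and cytokinesis, had 27.3, 8.44 and 7.51 FPKM in BMP2+RSPO2, against 53.04, 22.9 and 26.7 in BMP2, 70.4, 10.8 and 10.2 in RSPO2 and 72, 17.01 and 16.8 in Control cells. Kif23, a subunit of centralspindlin, had 13.8, 5.2 and 4.94 FPKM in BMP2+RSPO2, against 20.5, 11.5 and 10.5 in BMP2, 30.8, 5.22 and 5.7 in RSPO2 and 30.99, 6.33 and 7.21 in Control cells. Kif20a was also lower in RSPO2 than in Control cells in numbers 2 and 3 by more than its replicates 2 and 3 differed within either arm. Kif2c, Kif22 and Kif18b averaged 4.88, 4.24 and 6.17 FPKM in BMP2+RSPO2, against 10.2, 10.1 and 10.2 in BMP2 cells. Their averages were 8.88, 7.08 and 9.48 in RSPO2 and 8.65, 8.53 and 10.6 in Control cells. Tpx2, which nucleates spindle microtubules and activates Aurora A, had 39.9, 11.6 and 11.2 FPKM in BMP2+RSPO2, against 56.9, 27.9 and 30.2 in BMP2, 69.8, 14.4 and 12.99 in RSPO2 and 68.3, 16.8 and 18.3 in Control cells. Prc1, which bundles microtubules of the central spindle, had 12.4, 3.92 and 2.45 FPKM in BMP2+RSPO2, against 13.6, 5.51 and 6.03 in BMP2, 14.2, 2.84 and 4.73 in RSPO2 and 16, 3.18 and 3.89 in Control cells. Prc1 departed from the rest in number 2, where BMP2+RSPO2 cells were above Control cells. Nusap1, which bundles spindle microtubules, averaged 8.79 FPKM in BMP2+RSPO2, 20.5 in BMP2, 16.5 in RSPO2 and 19.7 in Control cells.

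For cytokinesis, Anln, the actin-binding anillin of the contractile ring, had 33.1, 8.6 and 8.6 FPKM in BMP2+RSPO2, against 46.2, 19.3 and 21.7 in BMP2, 54.04, 7.9 and 8.85 in RSPO2 and 52.96, 10.5 and 12.5 in Control cells. Racgap1, the GTPase-activating subunit of centralspindlin, had 17.1, 7.12 and 6.83 FPKM in BMP2+RSPO2, against 27.6, 14.8 and 14.1 in BMP2, 33.6, 8.1 and 6.54 in RSPO2 and 33.1, 9.46 and 9.46 in Control cells. Both had BMP2 cells highest in numbers 2 and 3. Ect2, the exchange factor that activates RhoA for furrowing, averaged 6.16 FPKM in BMP2+RSPO2, 11.4 in BMP2, 9.09 in RSPO2 and 8.47 in Control cells. The genes of mitotic exit followed. Cdc20, the activator of the anaphase-promoting complex (APC/C), had 26.4, 10.7 and 11.3 FPKM in BMP2+RSPO2, against 59.1, 28.1 and 24.9 in BMP2, 68.8, 12.6 and 13.6 in RSPO2 and 72.7, 14.6 and 17.8 in Control cells. Ube2c, its ubiquitin-conjugating enzyme, had 28.1, 6.81 and 7.1 FPKM in BMP2+RSPO2, against 38.2, 15.9 and 16.01 in BMP2, 38.9, 8.09 and 8.22 in RSPO2 and 39.1, 8.57 and 9.59 in Control cells. Pttg1, securin, which the APC/C destroys to release separase, had 6.13, 7.25 and 7.55 FPKM in BMP2+RSPO2, against 13.5, 11.1 and 11.2 in BMP2, 10.7, 10.2 and 12.2 in RSPO2 and 10.1, 11.7 and 14.7 in Control cells. Pttg1 had no replicate 1 excess outside BMP2 cells, and its 3 BMP2+RSPO2 libraries lay below every other library.

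**Figure D3:**
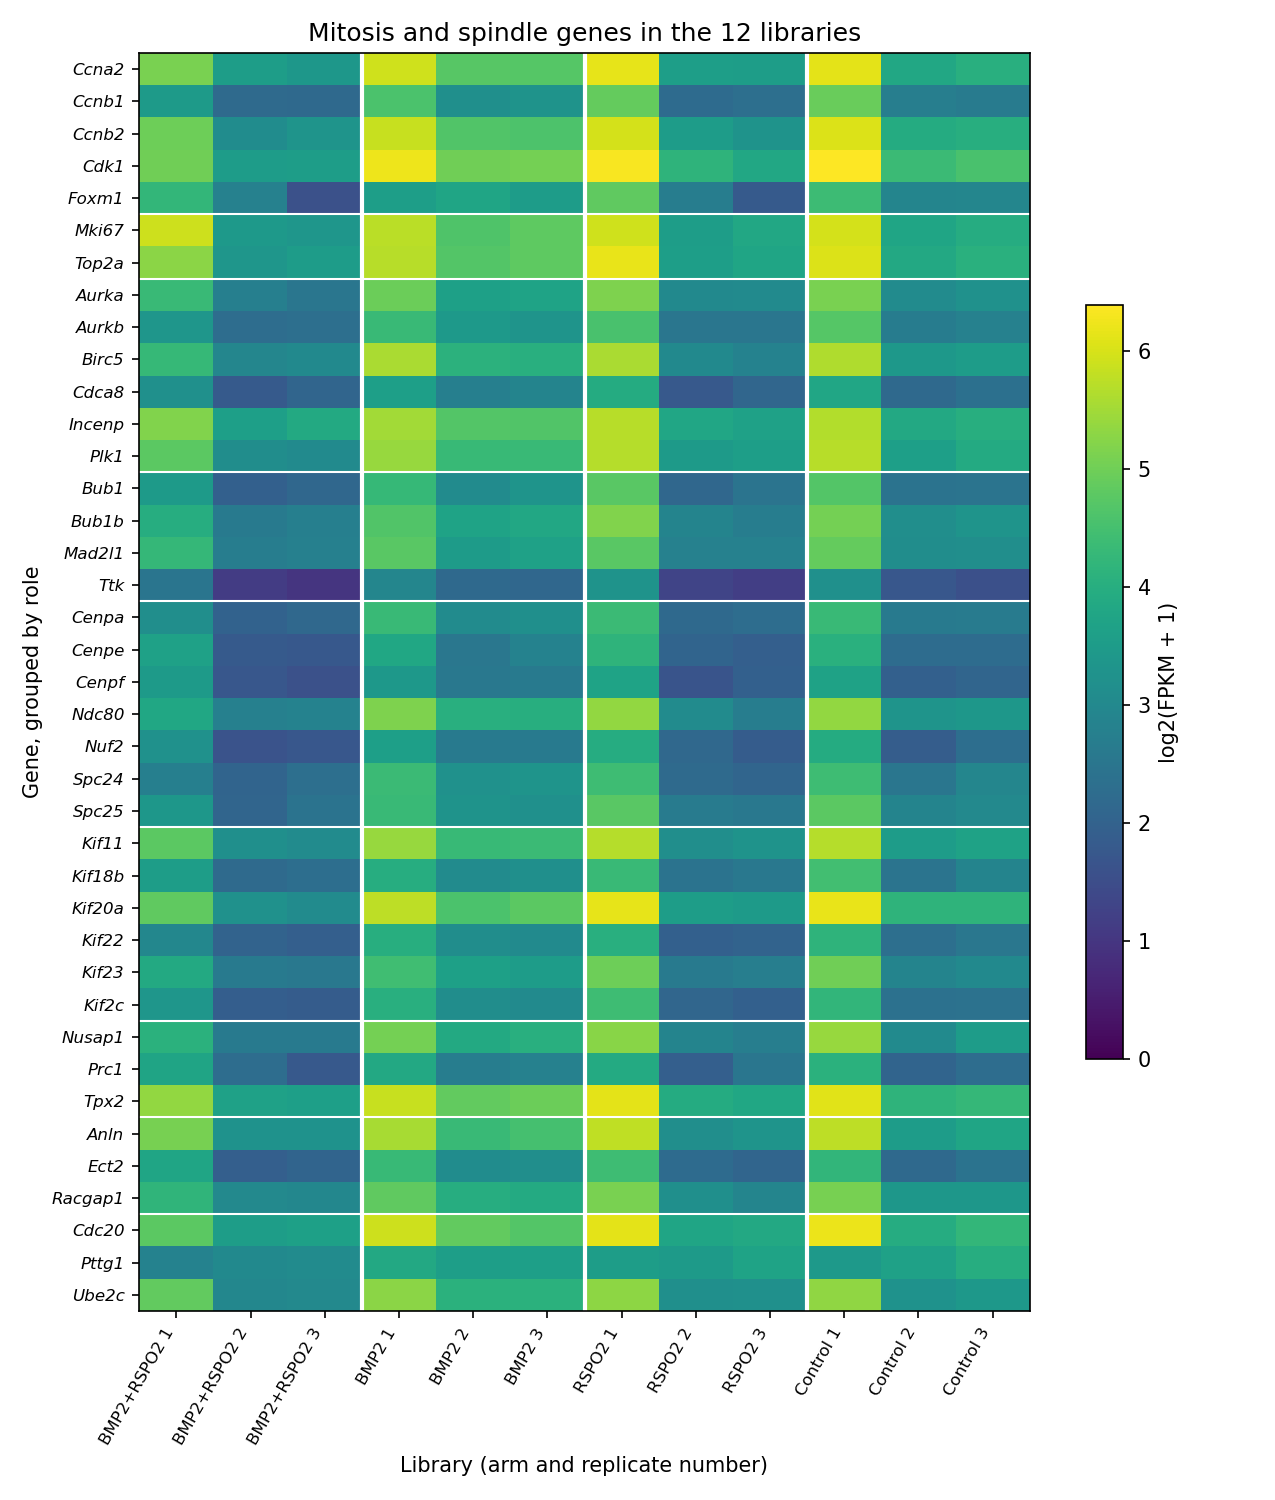
Level of each of the 39 genes (rows, grouped by role) in each library (columns, arm and replicate number) as log2(FPKM + 1), dark blue low and yellow high. Replicate 1 columns are brightest in every arm, and among replicates 2 and 3 those of BMP2 cells are brightest.

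**Figure D4:**
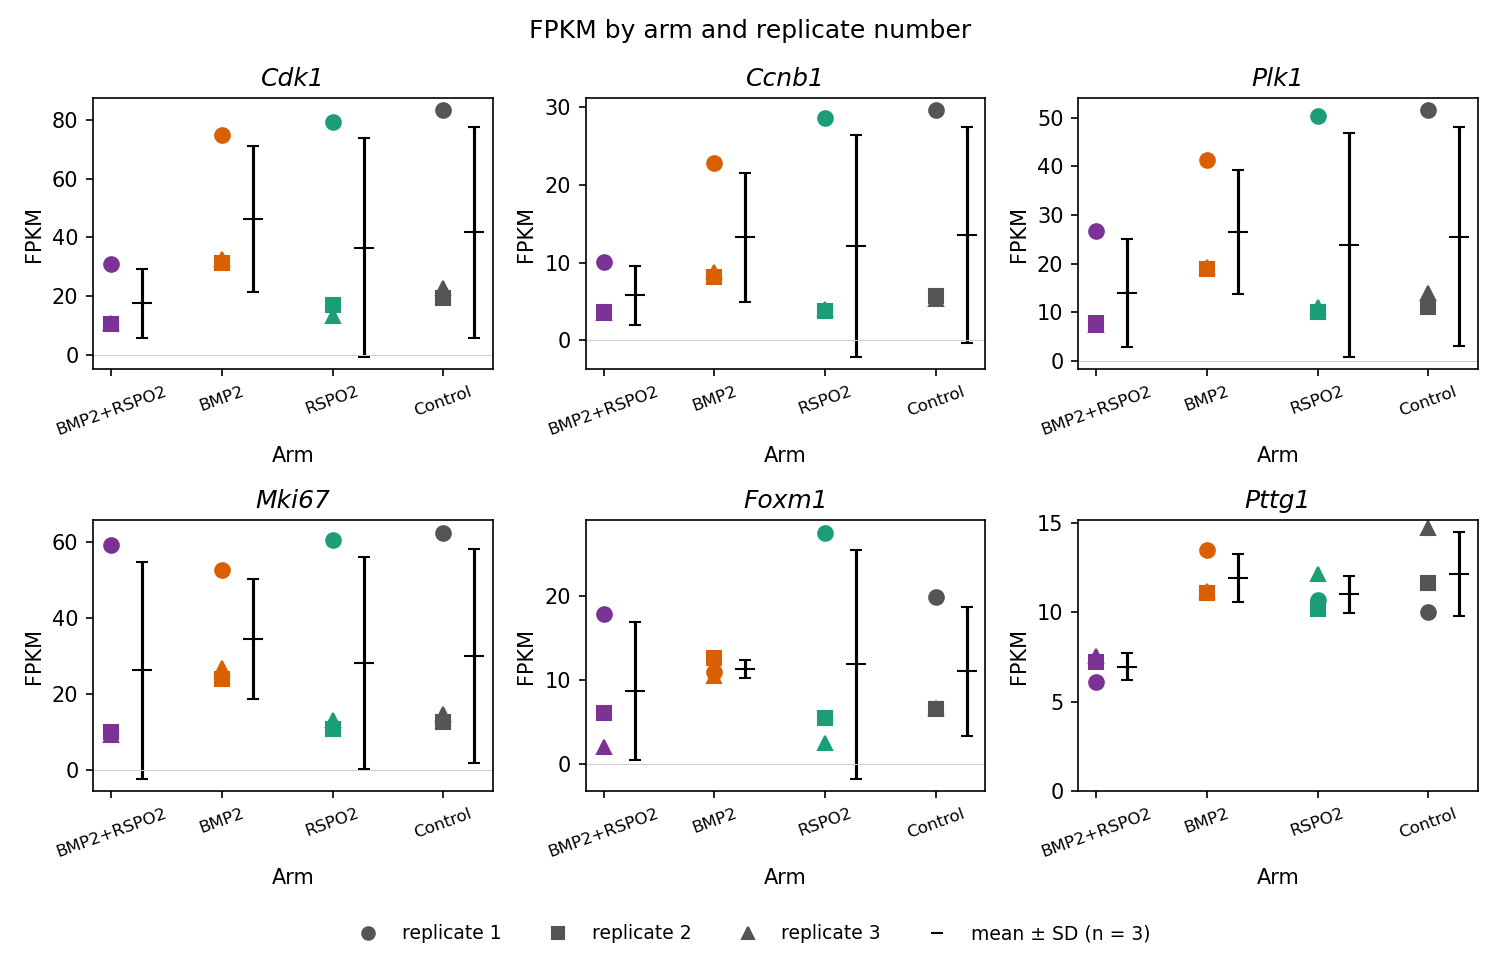
FPKM of 6 members (y axes start at or below 0) by arm, with circles, squares and triangles for replicates 1, 2 and 3 and bars for mean ± SD (n = 3). Circles lie far above the other symbols in nearly every arm for Cdk1, Ccnb1, Plk1 and Mki67, Foxm1 shows no such circle in BMP2 cells, and Pttg1 values of BMP2+RSPO2 cells (6.13 to 7.55 FPKM) lie below all others.

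Adding RSPO2 to BMP2 went with lower mitosis genes, with the largest median difference of the 5 comparisons between arms over all libraries. Within numbers 1, 2 and 3 the median member differed by -0.631, -1.11 and -1.09 on the log2 scale (BMP2+RSPO2 minus BMP2), and 36 of 39 members were lower within all 3 numbers, against 42.4% of all genes tested. Mki67, Foxm1 and Cenpf were the exceptions, each higher in BMP2+RSPO2 cells in number 1 and lower in numbers 2 and 3. As deposited, Cdk1, Kif22, Ndc80, Spc24 and Pttg1 were the 5 members whose arms did not overlap at all (5 of 39, against 28.6% of all genes tested). After division by the median-of-ratios factors, Cdk1, Kif22 and Ndc80 overlapped between these arms, whereas Spc24 and Pttg1 did not. The share of all genes tested was not counted on that scale. The lowest log2 changes were those of Cdk1 (-1.41), Kif20a (-1.32) and Ndc80 (-1.25), and the highest those of Prc1 (-0.52), Cenpf (-0.60) and Cenpe (-0.65).

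Tested with limma over all 12 libraries without regard to replicate number, 1 of the 39 members was called at an adjusted p below 0.05, against 4.38% of all genes tested. That member was Pttg1, which fell by 0.70 on the log2 scale (SE 0.145, limma adjusted p = 0.0311). With the replicate number as a block, limma called 31 members lower and 0 higher, against 13% of all genes tested called lower (14.8% in either direction). By role, the block called 4 of 5 genes of mitotic entry, 4 of 6 mitotic kinases and passenger subunits, 4 of 4 checkpoint genes, 5 of 7 centromere and kinetochore genes, 5 of 6 kinesins, 2 of 3 spindle assembly genes, 1 of 2 proliferation antigen and chromosome structure genes, 3 of 3 cytokinesis genes and 3 of 3 APC/C genes. Under the block, Cdk1 fell by 1.41 (SE 0.224, limma adjusted p = 0.0113) and Kif20a by 1.32 (SE 0.273, limma adjusted p = 0.0213), lower in 3 of 3 numbers each. The kinase Aurka fell by 0.90 (SE 0.166, limma adjusted p = 0.0161), the centromere histone Cenpa by 1.09 (SE 0.205, limma adjusted p = 0.0171) and the E2 enzyme Ube2c by 0.87 (SE 0.176, limma adjusted p = 0.02). Kif23, Mki67, Foxm1, Cdca8, Incenp, Cenpe, Cenpf and Prc1 did not pass, with log2 changes of -0.52 to -0.83. With replicate 1 of all arms left out, limma called 37 lower, all but Foxm1 and Prc1, against 16.4% of all genes tested.

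The typical gene also differed in comparisons with the combined arm: the median log2 change of all genes tested was -0.257 against Control, -0.19 against BMP2 and -0.264 against RSPO2, and median-of-ratios or quantile scaling removes this shift. Relative to that shift the median member still differed from BMP2 cells by -0.283, -1.02 and -0.971 within numbers 1, 2 and 3, and 33 of 39 members were lower within all 3 numbers (24.6% of all genes tested). With scaling and block together, limma called 12 members lower, against 4.85% of all genes tested; with scaling and replicate 1 of all arms left out, 36, against 9.72%. Scaling without the block left 0 members called, Pttg1 included (limma adjusted p = 0.106 with median-of-ratios and 0.0984 with quantile scaling, 1 member at an unadjusted p under 0.05 in each). Without the block, Pttg1 was no longer called when BMP2+RSPO2 replicate 2, any 1 BMP2 library, RSPO2 replicate 2 or Control replicate 2 was left out. The count of 31 under the block was 0 without BMP2 replicate 2, 1 without BMP2 replicate 3, 7 without BMP2+RSPO2 replicate 2, 16 without BMP2+RSPO2 replicate 1, 19 without BMP2+RSPO2 replicate 3 and 13 to 19 without RSPO2 replicate 2 or any 1 Control library.

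**Figure D5:**
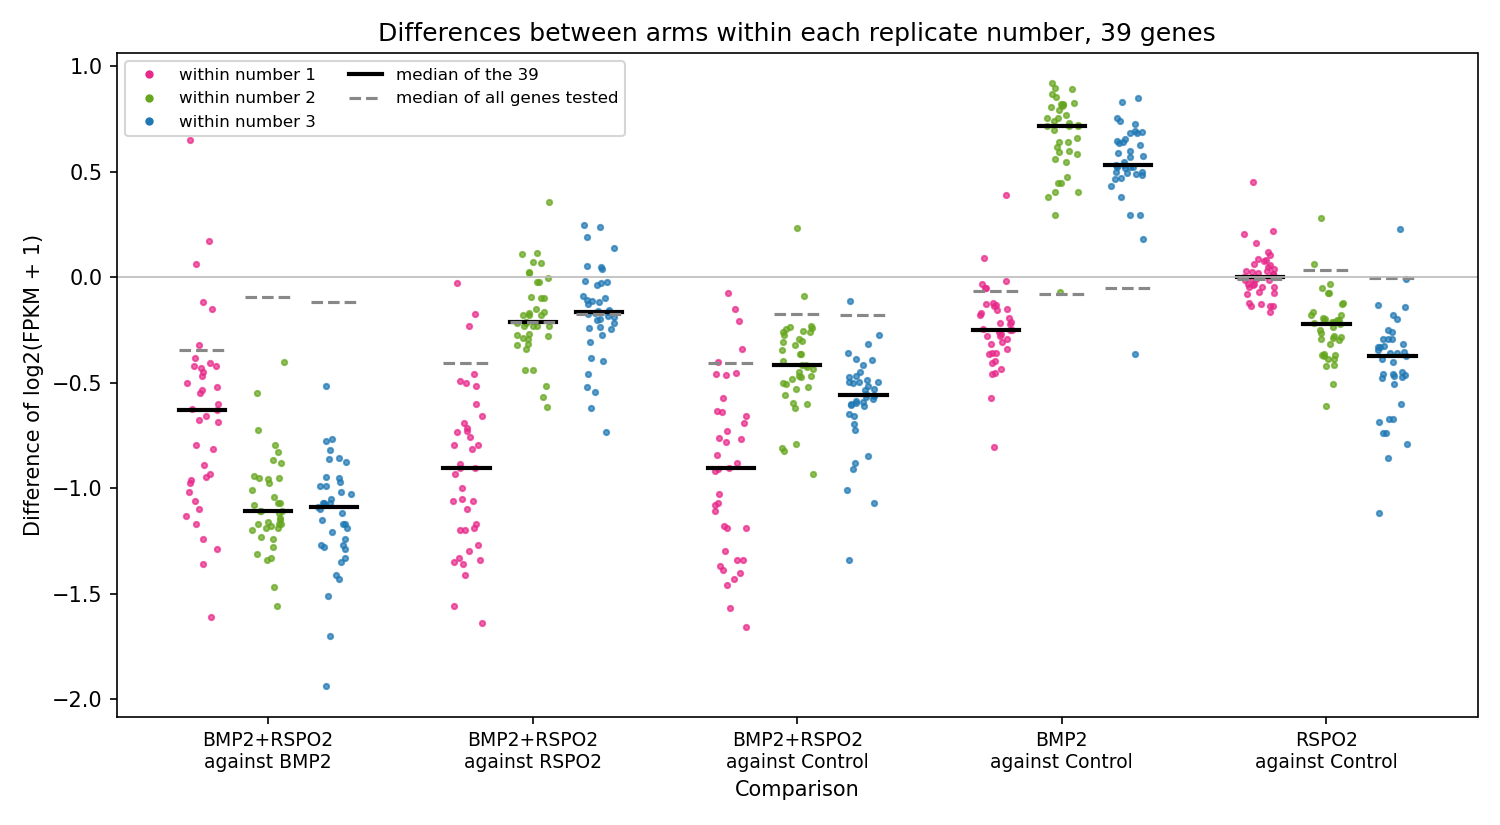
Differences of log2(FPKM + 1) between arms within replicate numbers 1 (pink), 2 (green) and 3 (blue) for 5 comparisons, 1 point per gene, first-named arm minus the other, with black bars at the median of the 39 and dashed bars at the median of all genes tested. For BMP2+RSPO2 against BMP2 the medians in numbers 2 and 3 are -1.11 and -1.09, and for BMP2 against Control the sign in number 1 (-0.25) is opposite to that in numbers 2 and 3 (0.716 and 0.534).

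Against Control, BMP2+RSPO2 cells also had lower mitosis genes, by less. The median member differed by -0.903, -0.418 and -0.558 within numbers 1, 2 and 3, and 38 of 39 were lower within all 3, with Prc1 as the exception, against 51.7% of all genes tested. After median-of-ratios scaling the medians were -0.48, -0.234 and -0.399, with 33 of 39 lower within all 3 numbers (29.5% of all genes tested). Without the block, limma called Pttg1 alone (log2 change -0.71, SE 0.145, limma adjusted p = 0.0074), against 23% of all genes tested; only Pttg1 had arms that did not overlap, against 37.3% of all genes tested. With the block, limma called 15 members lower and 0 higher, against 28.4% of all genes tested called lower. These included Kif20a, which fell by 1.12 (SE 0.273, limma adjusted p = 0.0156), Cdk1, which fell by 1.07 (SE 0.224, limma adjusted p = 0.00867), and Spc25, which fell by 0.93 (SE 0.229, limma adjusted p = 0.0162). At the other end, Prc1 (-0.20), Incenp (-0.27) and Cenpf (-0.32) did not pass. With scaling alone Pttg1 was not called (limma adjusted p = 0.0686 with median-of-ratios, 0.058 with quantile). With scaling and block together 2 members were called, Cdk1 and Pttg1, against 12.2% of all genes tested, so that the share of members called was then below that of all genes. The count of 15 was 2 without Control replicate 1, 4 without Control replicate 3 or BMP2+RSPO2 replicate 1, 7 without Control replicate 2 or BMP2+RSPO2 replicate 2, 8 without RSPO2 replicate 2, 10 without BMP2+RSPO2 replicate 3 or BMP2 replicate 2 or 3, 25 without RSPO2 replicate 1 and 28 without BMP2 replicate 1.

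BMP2 alone against Control gave opposite signs by replicate number. The median member differed by -0.25 in number 1 (BMP2 minus Control), and by 0.716 and 0.534 in numbers 2 and 3, and 37 of 39 members had this pattern, against 10.4% of all genes tested. Ect2 was higher in all 3 numbers (0.0907, 0.92 and 0.725), and Pttg1 had the reverse pattern (0.389, -0.0688 and -0.363). Over all libraries, limma called 0 of 39 members, with 0 at an unadjusted p under 0.05, against 1.52% of all genes tested called. The highest log2 changes were those of Ect2 (0.58), Ube2c (0.49) and Mki67 (0.49), and the lowest those of Pttg1 (-0.01), Spc25 (0.04) and Kif18b (0.15). With replicate 1 of all arms left out, which leaves 2 libraries an arm, limma called 29 members higher and 0 lower, against 3.75% of all genes tested called higher. In that fit Mki67 rose by 0.85 (SE 0.121, limma adjusted p = 0.0114), Ect2 by 0.82 (SE 0.114, limma adjusted p = 0.0106) and Ccna2 by 0.79 (SE 0.0941, limma adjusted p = 0.00621). With scaling in addition, 31 were called higher, against 4.81% of all genes tested, while the difference in number 1 kept the opposite sign (median -0.182).

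RSPO2 alone against Control showed a small difference in numbers 2 and 3 only. The median member differed by 0.0014, -0.222 and -0.375 within numbers 1, 2 and 3 (RSPO2 minus Control), and 36 of 39 were lower within numbers 2 and 3, against 25.2% of all genes tested. Prc1, Ect2 and Nuf2 were the exceptions. In limma over all libraries 0 members were called with or without the block, and 0 had an unadjusted p under 0.05, against 0.0779% (no block) and 0.225% (block) of all genes tested called. The lowest log2 changes were those of Kif20a (-0.44), Ccnb2 (-0.40) and Spc24 (-0.38), and the highest those of Prc1 (-0.02), Ect2 (-0.03) and Nuf2 (-0.05). With replicate 1 of all arms left out, Kif20a was the member called (log2 change -0.64, SE 0.0952, limma adjusted p = 0.0335), against 0.598% of all genes tested called lower. With scaling in addition, Kif20a and Birc5 were called, against 0.632% of all genes tested called lower.

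Against RSPO2 alone, the combined arm had lower mitosis genes in number 1, whereas in numbers 2 and 3 the median member lay near that of all genes tested. The median member differed by -0.904, -0.213 and -0.164 within numbers 1, 2 and 3 (BMP2+RSPO2 minus RSPO2), beside medians of all genes tested of -0.406, -0.21 and -0.173. In number 1 all 39 were lower, against 72.8% of all genes tested. Lower within all 3 numbers were 25 of 39, against 49.5% of all genes tested, and after scaling 9 of 39, against 26%. Scaled medians were -0.488, 0.00804 and 0.0119. Without the block limma called Pttg1 (log2 change -0.59, SE 0.145, limma adjusted p = 0.0146), against 26.1% of all genes tested, and only Pttg1 had arms that did not overlap (36.1% of all genes tested). With the block, Pttg1, Cdk1, Spc25 and Aurka were called lower, against 30.2% of all genes tested, with log2 changes of -0.59, -0.74, -0.68 and -0.54. For this pair of arms number 3 did not pass the check of pairing described below, so the block is a description here. Kif20a stood at -0.68, and Incenp (-0.15), Prc1 (-0.18) and Cenpf (-0.18) had the highest log2 changes. With scaling and block limma called 0 members (1 at an unadjusted p under 0.05, against 12.7% of all genes tested called lower), and with scaling alone Pttg1 had a limma adjusted p of 0.179 (median-of-ratios) or 0.151 (quantile). The count of 4 was 2 without BMP2+RSPO2 replicate 2 or 3, 1 without BMP2+RSPO2 replicate 1, RSPO2 replicate 1 or 2 or Control replicate 3, and 10 without BMP2 replicate 1. Comparisons of BMP2+RSPO2 cells with the other arms share the BMP2+RSPO2 libraries, and those with Control share the Control libraries.

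The interaction asks whether BMP2 acted differently with RSPO2 present than without it. Its median over the members was -0.767 on the log2 scale, beside -0.205 for all genes tested. Limma called 0 members over all libraries, against 0.294% of all genes tested, with 1 member at an unadjusted p under 0.05, so the difference of BMP2 effects did not pass the test there. The lowest values were those of Cdk1 (-1.07, SE 1.05), Cdc20 (-0.96) and Ndc80 (-0.95), and the highest those of Foxm1 (-0.45), Mad2l1 (-0.46) and Cenpf (-0.47). With replicate 1 of all arms left out, limma called 27 members lower, against 7.08% of all genes tested called lower, with the lowest values in Mki67 (-1.13, SE 0.172, limma adjusted p = 0.0147), Cdk1 (-1.02, SE 0.175, limma adjusted p = 0.0197) and Top2a (-1.01, SE 0.156, limma adjusted p = 0.0149). With scaling in addition, 15 were called lower, against 4.23% of all genes tested.

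Other cell cycle genes were described from lists that the members are not part of. Of 50 other mitosis genes, 45 were tested; in BMP2+RSPO2 against BMP2 cells, limma called 1 lower without the block (4.38% of all genes tested in either direction). With the block it called 29 lower and 0 higher, with a median log2 change of -0.84 (13% of all genes tested called lower). With scaling in addition 13 were called lower (4.85% of all), and with replicate 1 of all arms left out 42 (16.4% of all). Under the block Psrc1, a spindle protein, fell by 0.84 (SE 0.0936, limma adjusted p = 0.00389), Cdca3 by 1.11 (SE 0.174, limma adjusted p = 0.0104) and the kinetochore gene Dsn1 by 0.59 (SE 0.096, limma adjusted p = 0.0123); without the block Psrc1 passed (limma adjusted p = 0.00927) and Cdca3 and Dsn1 did not (0.375 and 0.441). Psrc1 had 15.45, 19.7 and 21.1 FPKM in BMP2+RSPO2, against 33.5, 34.5 and 34.2 in BMP2, 42.6, 50.0 and 51.6 in RSPO2 and 42.0, 42.9 and 48.1 in Control cells, so that it showed no replicate 1 excess and its BMP2+RSPO2 libraries lay below all others. Replicate 1 was highest in every arm for 42 of these 45 genes and for 30 of 32 S phase and licensing genes, against 14.8% of all genes tested.

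Of those 32 tested S phase genes (35 listed), limma called 0 in BMP2+RSPO2 against BMP2 cells without the block (2 at an unadjusted p under 0.05). Of all genes tested, 4.38% were called in that fit. With the block it called 24 lower and 0 higher, against 13% of all genes tested called lower, and with scaling in addition 15 lower, against 4.85%. Under the block Mcm6, of the replicative helicase, fell by 1.18 (SE 0.15, limma adjusted p = 0.00618), Prim1, of primase, by 1.06 (SE 0.145, limma adjusted p = 0.00742) and Rrm1, of ribonucleotide reductase, by 0.90 (SE 0.126, limma adjusted p = 0.00824); without the block their limma adjusted p were 0.199, 0.242 and 0.313. With replicate 1 of all arms left out, BMP2 against Control cells had 15 of these 32 and 19 of the 45 other mitosis genes called higher, against 3.75% of all genes tested, and 0 and 1 called lower, against 4.59%. Over all libraries limma called 0 of either list for BMP2 against Control, without the block (0 and 1 at an unadjusted p under 0.05) and with it (6 and 4). Of all genes tested, 1.52% were called without the block and 2.85% with it.

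Among 20 tested MuvB, B-Myb, E2F and pocket protein genes, the regulators of these programmes, the block called 4 in BMP2+RSPO2 against BMP2 cells, against 14.8% of all genes tested. Under the block Rb1, the retinoblastoma protein that restrains E2F, rose by 0.60 (SE 0.108, limma adjusted p = 0.015) and 3 genes were called lower. Without the block Rb1 alone was called (limma adjusted p = 0.0234), against 4.38% of all genes tested. Rb1 had 6.45, 8.28 and 7.52 FPKM in BMP2+RSPO2, against 4.39, 4.53 and 4.64 in BMP2, 5.13, 5.21 and 6.1 in RSPO2 and 5.14, 5.5 and 4.51 in Control cells, higher than every other library in all 3. Mybl2, which encodes B-MYB, fell by 0.76 (SE 0.189, limma adjusted p = 0.0346) and E2f8 by 0.62 (SE 0.158, limma adjusted p = 0.0373); with scaling in addition neither passed (adjusted p = 0.061 and 0.126), while Rb1 did (adjusted p = 0.00686). Replicate 1 was highest in every arm for 10 of the 20, against 14.8% of all genes tested.

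Of 14 tested G1 cyclins and CDK inhibitors, replicate 1 was highest in every arm for 2, near the 14.8% of all genes tested. In BMP2+RSPO2 against BMP2 cells the block called 4 lower, against 13% of all genes tested. With scaling in addition limma called 1 lower and 1 higher, against 4.85% and 4.45% of all genes tested. Without the block limma called 0 (5 at an unadjusted p under 0.05), against 4.38% of all genes tested. Against Control 5 were called lower with or without the block, against 28.4% and 19.4% of all genes tested called lower. Under the block and against BMP2 cells, Cdkn2c, the p18 inhibitor of CDK4 and CDK6, fell by 1.09 (SE 0.157, limma adjusted p = 0.00891, 0.129 without the block), with 8.0, 5.07 and 5.69 FPKM in BMP2+RSPO2, against 21.0, 11.2 and 12.1 in BMP2, 33.2, 14.8 and 12.7 in RSPO2 and 30.0, 12.7 and 13.5 in Control cells. Btg2, an antiproliferative gene, was already lower with BMP2 alone, with 5.02, 9.48 and 10.2 FPKM in BMP2+RSPO2, 9.6, 12.8 and 12.6 in BMP2, 17.0, 30.5 and 30.0 in RSPO2 and 17.6, 28.03 and 26.5 in Control cells. In BMP2 against Control cells Btg2 fell by 0.96 (SE 0.112, limma adjusted p = 0.00341 with the block, 0.19 without), so it passed only with the block. Cdkn1b, the p27 inhibitor of CDK2, fell by 0.70 in BMP2 against Control cells (SE 0.126, limma adjusted p = 0.0234 with the block, 0.0229 without). Of 15 APC/C genes, the co-activator Fzr1 included, limma called 1 lower in BMP2+RSPO2 against BMP2 cells without the block (3.74% of all genes tested called lower). With the block limma called 3 lower (13% of all genes tested), and with scaling in addition 1 (4.85%). Replicate 1 was highest in every arm for 5 of these 15, against 14.8% of all genes tested.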

How the data were processed

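RNA-seq libraries (poly(A)-selected, stranded) were made from 12 cultures, 3 in each of 4 arms, per the labels. The deposited values are FPKM per gene in 1 table, made by the authors; per the submitters' processing notes the tools included cutadapt 1.10, FastQC 0.10.1, HISAT2 2.0, StringTie 1.3.4 and edgeR, with builds GRCm38 and mm10. Counts and depth were not in the table, and no whole-read steps were found in it, so counting error could not be given. FPKM divides by the library total, so a few very abundant RNAs can lower all other values of a library. In BMP2+RSPO2 replicate 1 the 10 highest genes took 57.8% of the FPKM sum, against 19.7% and 19.8% in replicates 2 and 3 of that arm. The median-of-ratios factors of these libraries were 0.835, 0.898 and 0.894. Whether abundant RNAs lowered the other values of replicate 1 was not tested.

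Genes that reached 1 FPKM in 3 or more of the libraries (11548 of 39032) were tested on log2(FPKM + 1) with limma 3.58.1 in R 4.3.3 (empirical Bayes with a trend, two-sided, all 12 libraries in 1 fit, Benjamini-Hochberg adjustment over all genes tested, threshold 0.05). The pseudocount of 1 understates changes of low genes. Differences within replicate numbers carry no p. The fit was tested on simulated data with no replicate-number effect and each gene's spread held at or below the median spread. That test does not cover the replicate 1 excess of the members. Alternatives were a replicate block, leaving out replicate 1 of every arm, other scaling, pseudocount and filters, only the arms compared, and leaving out each library. Python 3.11.15 and matplotlib 3.10.9 were used for motifs and figures.

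Whether replicate numbers pair libraries was checked as the correlation of deviations from arm means between same-numbered libraries: 16 of 18 pairs were over 0.1, from -0.124 to 0.631. Every number passed for RSPO2 against Control, BMP2+RSPO2 against Control and BMP2+RSPO2 against BMP2. Number 3 did not for BMP2 against Control (0.0789) or BMP2+RSPO2 against RSPO2 (-0.124). The 3 deviations of an arm balance each other, so a replicate 1 shift shared by the arms raises the correlations in every number. Libraries with different numbers were not compared, so the check cannot show that numbers 2 and 3 pair libraries. The members, the gene lists and the doubt about replicate 1 were chosen with earlier results of these data known. A panel of 25 members is given in every library, with the 3 highest and 3 lowest log2 changes of each comparison, every called member where 5 or fewer were called, and up to 3 genes of each list by smallest p under the block.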

Additional observations from a re-analysis of the deposited data

Results flagged for a closer look

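Ect2, the RhoA exchange factor of cytokinesis, was picked out because its BMP2 effect had opposite signs without and with RSPO2 in every replicate number. With RSPO2 present (BMP2+RSPO2 minus RSPO2), the differences on the log2(FPKM + 1) scale were -0.659, -0.315 and -0.0171 in numbers 1, 2 and 3, and without it (BMP2 minus Control) 0.0907, 0.92 and 0.725. After median-of-ratios scaling the differences were -0.257, -0.119 and 0.145 with RSPO2 and 0.158, 0.991 and 0.77 without it, so the signs were then not opposite in number 3. As deposited, the difference between the effects over all libraries was -0.909 (SE 1.06), and limma's interaction test did not call it (adjusted p = 0.708). With replicate 1 of every arm left out it was -0.99 (SE 0.162, limma adjusted p = 0.0168). Ect2 was picked by the signs of these same values, so that p is no separate support. The same fit called 27 of the 39 members lower, against 7.08% of all genes tested, so the result was not particular to Ect2.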

How the results depend on the processing

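The Pttg1 calls without the block kept their sign under every alternative run. Of members called under at least 1 setting, none was called in both directions, but some had the opposite sign, not called, under another: 2 of 2 for RSPO2 against Control, 19 of 31 for BMP2 against Control, 14 of 33 for BMP2+RSPO2 against Control, 0 of 38 against BMP2, 9 of 10 against RSPO2 and 11 of 27 for the interaction. Leaving out replicate 1 of every arm gave 1 member called for RSPO2 against Control, 29 for BMP2 against Control, 30 for BMP2+RSPO2 against Control, 37 against BMP2, 5 against RSPO2 and 27 for the interaction. With median-of-ratios scaling in addition, an alternative chosen after seeing the data, the counts were 2, 31, 12, 36, 0 and 15 in that order. Of all genes tested, the fit without replicate 1 called 27.2% lower in BMP2+RSPO2 against Control cells and 29.3% lower against RSPO2 cells. With scaling in addition these shares were 13.9% and 14%. The replicate block gave 15, 31 and 4 for BMP2+RSPO2 against Control, BMP2 and RSPO2, and 0 for RSPO2 against Control, BMP2 against Control (2 at an unadjusted p under 0.05 in limma) and the interaction (17). For BMP2+RSPO2 against RSPO2, for BMP2 against Control and for the interaction, not every number passed the check of pairing, so the block is a description there. For the other comparisons that check could not show that numbers 2 and 3 pair libraries. Median-of-ratios or quantile scaling without the block gave 0 members in all 3 BMP2+RSPO2 comparisons. With block and scaling, both chosen after seeing the data, the counts were 2, 12 and 0 (median-of-ratios) and 2, 11 and 0 (quantile). Of all genes tested, block and quantile scaling called 11.5%, 4.93% and 12.3% lower against Control, BMP2 and RSPO2. Using only the arms compared gave 0 for BMP2+RSPO2 against BMP2 (10 at an unadjusted p under 0.05).

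Leaving out 1 library without the block gave 0 to 1 members for BMP2+RSPO2 against BMP2, 1 to 1 against Control and RSPO2, and 0 to 0 for the others. With the block and 1 library left out, chosen after seeing the data except for BMP2+RSPO2 replicate 1, the counts against Control were 4, 7 and 10 without BMP2+RSPO2 replicates 1, 2 and 3, 28, 10 and 10 without those of BMP2, 25, 8 and 13 without those of RSPO2 and 2, 7 and 4 without those of Control. Against BMP2 they were, in the same order, 16, 7 and 19, then 37, 0 and 1, then 33, 17 and 27, then 19, 16 and 13, and against RSPO2 1, 2 and 2, then 10, 3 and 3, then 1, 1 and 3, then 3, 3 and 1; BMP2 against Control reached 4 and the interaction 7 without BMP2 replicate 1. The median log2 change of the members ran from -0.9598 to 0.4303 for RSPO2 against Control, -0.01895 to 0.9583 for BMP2 against Control, -1.121 to -0.006844 for BMP2+RSPO2 against Control, -1.463 to -0.6535 against BMP2 and -0.911 to 0.3346 against RSPO2, with the extremes where a first replicate was left out. Of single-gene results under alternatives, 7494 kept their side of the threshold, 633 newly passed and 18, all of Pttg1, no longer passed. The cause of these changes was not tested.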
